A study of Mus musculus with 4 samples.

Results

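Transcripts of 45 enzymes and complex subunits that write, remove or act on chromatin and DNA methylation marks were compared between PLZF+ and PLZF- γδ T cells of mouse fat. The genes were chosen by name and fall into 7 groups: Polycomb proteins (8), DNA methylation and demethylation enzymes (7), histone deacetylases and a sirtuin (8), lysine demethylases (7), lysine methyltransferases (8), acetyltransferases (4) and chromatin remodellers (3). All 45 were found among the 46165 genes that the deposited tables gave, at 46 loci, since Hdac4 was listed at 2 loci that do not overlap. Of these, 44 loci of 43 genes reached a mean of 10 normalized counts and were tested, while Ring1 and Hdac9 did not.

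The antigen receptor of γδ T cells is built from γ and δ chains. PLZF+ cells (libraries coded A7 and B7) and PLZF- cells (A6 and B6) were separated by flow cytometry out of epididymal fat, and both came from male C57Bl/6 PLZFGFP reporter mice of 16 to 22 weeks. PLZF is the product of Zbtb16. Every library pooled 10 mice and was prepared with SMARTseq2, which copies whole transcripts from few cells. The column names of all libraries also hold the tag SFD, whose meaning was not established here. Whether libraries of the 2 subsets shared mice is not stated, so p-values rest on spread among pools and not among mice. With 2 pools a subset, the fit shares spread over genes. A standard error (SE) or p-value below is therefore not the gene's own spread alone.

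Polycomb proteins work in a pair of complexes. One methylates histone H3 through EZH1 or EZH2 with EED and SUZ12, and the other ubiquitinates histone H2A through RING1 or RNF2 with partners such as BMI1. DNA methyltransferases add methyl groups to cytosines, UHRF1 brings DNMT1 to newly copied DNA, and TET enzymes oxidise the methyl group as a step of its removal. HDACs and sirtuins remove acetyl groups that EP300, CREBBP and the KAT2 enzymes add, and KMT and KDM enzymes add and remove methyl groups on histone lysines. PLZF itself is a repressor of the BTB zinc-finger family that is known to bind corepressor complexes holding HDACs.

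Leaving aside the rRNA precursor, PLZF+ libraries held an estimated 1837514 and 2035080 reads, against 744569 and 981885 for PLZF- libraries. Zbtb16 had 2899 and 2921 normalized counts in PLZF+ cells, against 310 and 699 in PLZF- cells. That gene's reporter guided the sort, so its level only checks the labels. The CD3 chains Cd3d, Cd3e and Cd3g were present in all 4 libraries but lower in PLZF- cells. Cd3e had 552 and 661 normalized counts in PLZF+ cells, against 182 and 367 in PLZF- cells. Of 6 tested genes of the γδ T cell list, 6 were higher in PLZF+ cells at an adjusted p under 0.05 (limma). Genes listed as markers of other cell types also differed between the subsets. Whether γδ T cells themselves made these transcripts cannot be told in bulk libraries. The 10 listed type 1 and natural killer cell genes summed to 70.6 and 71.4 normalized counts in PLZF+ cells, against 2475 and 2287 in PLZF- cells, and 8 of the 9 tested were lower in PLZF+ cells. The 7 listed genes of group 2 innate lymphoid cells summed to 183 and 116 in PLZF+ cells, against 3382 and 2957 in PLZF- cells (6 of 6 tested were lower), and the 9 dendritic cell genes, listed at 8 loci, to 165 and 51.3 in PLZF+ cells, against 1633 and 785 in PLZF- cells (5 of the 8 loci were lower). The 3 αβ T cell markers in the tables were at 0 in both PLZF+ libraries and summed to 27.0 and 20.7 in PLZF- cells. Macrophage markers summed to 1.24 and 0.558 in PLZF+ cells, against 20.2 and 28.1 in PLZF- cells, and the 5 stromal markers were at 0 in all 4 libraries. Of 5 listed B cell genes 1 was tested, Cd79b, which lay the other way and did not pass (limma). It had 33.4 and 29.6 normalized counts in PLZF+ cells, against 1.69 and 7.32 in PLZF- cells. Among the genes of these lists, Klre1 and Siglech were at 0 in both PLZF+ libraries and in neither PLZF- library. The part of other cell types, or of γδ T cells expressing these genes, in the differences below was not tested. Fewer cells of a type and less RNA per cell cannot be told apart in these bulk libraries.

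The promoters of Hdac4 and Kmt2a, genes with a locus that passed the test, are shown with that of Ezh1, whose difference did not pass. No window was matched for Kdm6b, which also passed. Ezh1 is a single example, so the windows do not compare genes that passed with genes that did not. The Hdac4 window lies at the start of its larger locus, whose difference did not pass either, and the call belongs to the separate 3′ locus. Each runs from 250 bases before to 50 after the RefSeq transcript start on GRCm38.p6, the assembly of mm10, and capitals mark the GC box GGGCGG or its reverse complement CCGCCC, a binding motif of SP1-type factors.
Hdac4 promoter (chr1:92180292-92180591, minus strand): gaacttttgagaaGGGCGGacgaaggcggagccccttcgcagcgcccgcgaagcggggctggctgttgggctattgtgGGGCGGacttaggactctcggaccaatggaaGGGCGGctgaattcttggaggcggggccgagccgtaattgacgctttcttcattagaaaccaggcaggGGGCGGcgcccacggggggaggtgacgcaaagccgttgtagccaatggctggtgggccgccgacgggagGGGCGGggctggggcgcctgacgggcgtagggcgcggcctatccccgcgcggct
Kmt2a promoter (chr9:44881240-44881539, minus strand): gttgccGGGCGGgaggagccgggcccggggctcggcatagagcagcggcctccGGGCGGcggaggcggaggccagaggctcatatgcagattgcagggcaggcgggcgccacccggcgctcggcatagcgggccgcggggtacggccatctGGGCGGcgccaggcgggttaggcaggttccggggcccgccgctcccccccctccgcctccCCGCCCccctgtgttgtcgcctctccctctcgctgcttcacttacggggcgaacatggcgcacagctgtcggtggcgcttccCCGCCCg
Ezh1 promoter (chr11:101226414-101226713, minus strand): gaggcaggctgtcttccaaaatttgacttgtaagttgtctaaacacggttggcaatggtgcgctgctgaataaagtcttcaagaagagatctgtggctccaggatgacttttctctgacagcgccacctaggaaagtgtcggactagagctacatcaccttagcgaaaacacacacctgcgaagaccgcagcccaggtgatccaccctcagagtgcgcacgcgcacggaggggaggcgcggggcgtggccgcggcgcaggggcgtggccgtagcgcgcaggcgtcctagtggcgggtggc
The Hdac4 and Kmt2a windows each held 5 GC boxes and the Ezh1 window held 0. They held 32, 36 and 23 CpG sites, the sites that DNA methyltransferases modify, against a median of 7 over all 32851 promoter windows of the table. Of the members, 39 had a window (the first entry of each), with a median of 27 CpG sites, and 74.4% of these held a GC box, against 35.7% of all windows. A match is a description of these letters only.

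Few of these genes differed between the subsets by the test over all genes, and the ones that did were lower in PLZF+ cells. Of 44 tested loci, 3 were lower and 0 were higher in PLZF+ cells at an adjusted p under 0.05 (limma on log2 normalized counts, Benjamini-Hochberg adjustment over 9282 genes). Those 3, the locus at the 3′ end of Hdac4, Kdm6b and Kmt2a, are 6.82% of the loci, against 7.46% of all genes tested that passed in either direction (4.99% lower and 2.47% higher). The share of calls was near that of all genes. At an unadjusted p under 0.05, 11 of 44 loci were lower and 0 higher, against 12% and 8.32% of all tested genes. By adjusted calls, 0 were higher by voom and in the authors' deposited table. The direction was less even: 32 of 44 loci (72.7%) had a log2 fold change below 0, against 51.4% of all tested genes. With all Hdac4 rows summed, so that Hdac4 counts only 1 time, it was 31 of 43. The PLZF+ libraries both lay below both PLZF- libraries at 22 of 44 loci (50%, against 27.2% of all tested genes) and above both at 5 (11.4%, against 24.1%). Some gaps were narrow, as for Kdm5b (61.9 in PLZF+ library B7, against 62.2 in PLZF- library B6). Overlap was not recounted under other scalings. By FPKM, 34 of the 44 loci gave the same answer on overlap. Of the other 10, Ezh1, Hdac5, Hdac7, Kdm2a, Kdm5b, Kmt2b and Arid1a overlapped by FPKM only, and Dnmt3a, Kmt2c and Ehmt2 by normalized counts only. The median log2 fold change was -0.38, against -0.027 over all tested genes. It stayed below 0 in every setting tried, from -0.57 to -0.26.

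**Figure D1:**
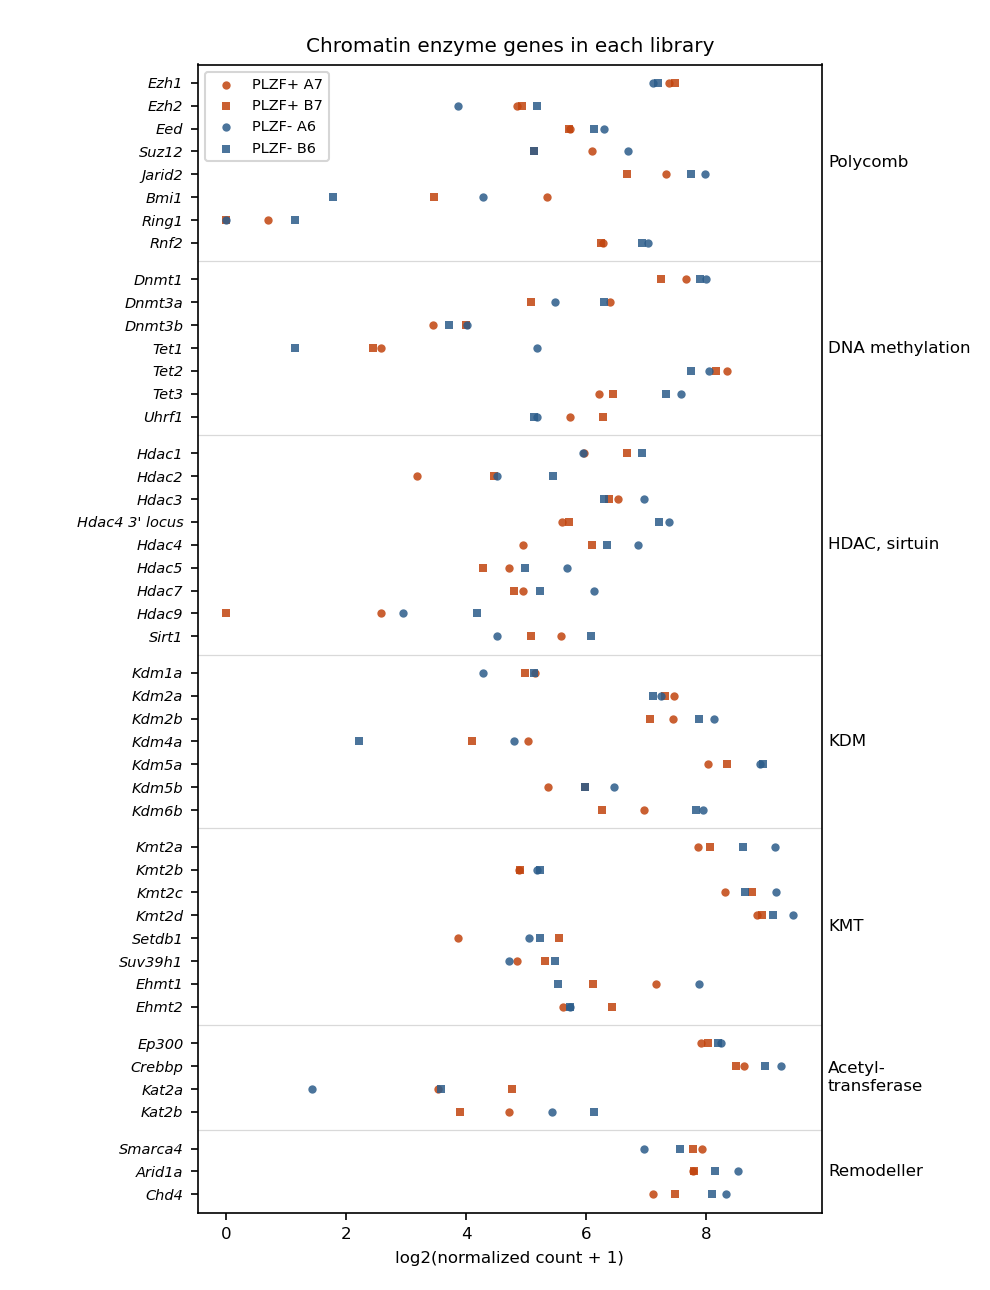
Level of each of the 46 loci in each of the 4 libraries, as log2(normalized count + 1), by group of enzymes. PLZF+ libraries are in orange (A7 round, B7 square) and PLZF- libraries in blue (A6 round, B6 square). Both PLZF+ points lie left of both PLZF- points at 22 of the 44 tested loci.

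**Figure D2:**
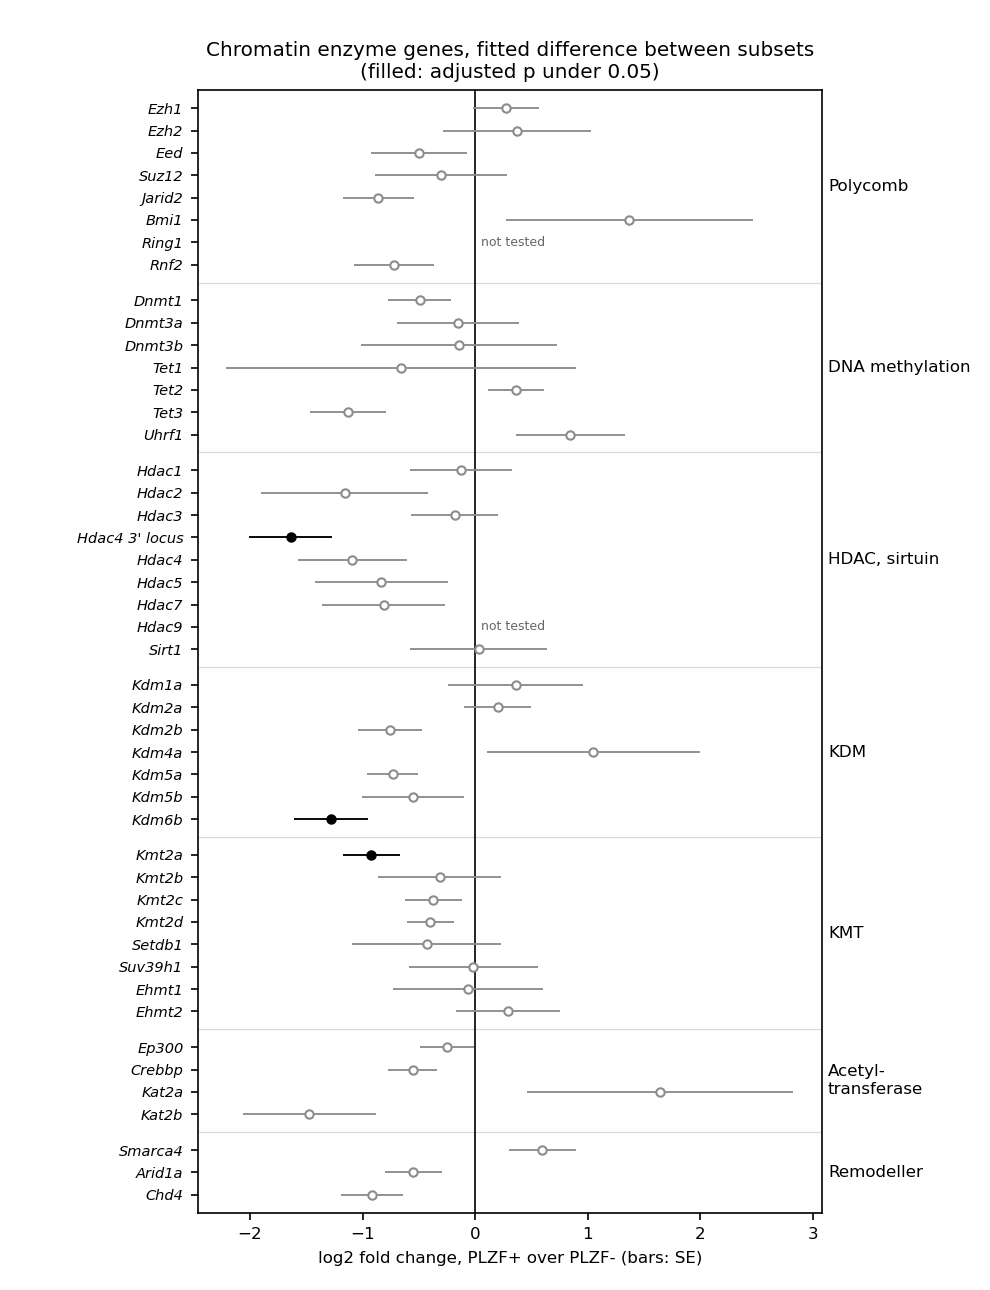
Fitted log2 fold change, PLZF+ over PLZF-, with its standard error for the 44 tested loci, where filled points have an adjusted p under 0.05. The 3 filled points, the Hdac4 3′ locus (-1.64), Kdm6b (-1.28) and Kmt2a (-0.92), all lie below 0.

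Hdac4 encodes a class IIa deacetylase that shuttles between cytoplasm and nucleus and docks on MEF2 factors. Its second locus (chromosome 1, 91928785 to 91931176, mm10) lay wholly within annotated exon sequence of 1 Hdac4 transcript at the 3′ end of the gene. It had 47.7 and 51.3 normalized counts in PLZF+ cells, against 165 and 148 in PLZF- cells. The subsets did not overlap and each pair of libraries lay close together. The fitted difference was -1.64 ± 0.37 on the log2 scale (± SE, as below; adjusted p = 0.017, limma), and this was the only row of the members with a q-value under 0.05 in the authors' deposited table (q = 0.028). The larger Hdac4 locus (91931534 to 92180341) had 29.7 and 67.5 normalized counts in PLZF+ cells, against 116 and 80.5 in PLZF- cells, also without overlap, but with a wider spread (-1.09 ± 0.48, adjusted p = 0.23, limma). With all Hdac4 rows summed, a setting chosen after seeing the data, the adjusted p was 0.020 (limma).

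Kdm6b encodes JMJD3, a demethylase that removes the repressive Polycomb mark from histone H3 and is induced by inflammatory signals in macrophages. Kdm6b (chromosome 11, 69398508 to 69413675, GENCODE M21 on GRCm38) had 124 and 76.5 normalized counts in PLZF+ cells, against 248 and 228 in PLZF- cells. Both PLZF+ libraries were lower than both PLZF- libraries, and the log2 fold change was -1.28 ± 0.33 (adjusted p = 0.034, limma). The value is the sum of 2 overlapping rows, and the larger of them had 90.1 and 63.8 normalized counts in PLZF+ cells, against 207 and 181 in PLZF- cells. By FPKM the other row weighed more, with 60.4 of 68.9 FPKM in PLZF+ library A7 and 91.8 of 110 FPKM in PLZF- library B6. The FPKM sum of Kdm6b thus mostly describes that row.

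Kmt2a encodes MLL1, a methyltransferase that places an activating mark on histone H3. Kmt2a (chromosome 9, 44803355 to 44881296) had 233 and 267 normalized counts in PLZF+ cells, against 572 and 391 in PLZF- cells. The subsets did not overlap, with PLZF- library A6 highest, and the log2 fold change was -0.92 ± 0.25 (adjusted p = 0.046, limma).

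The 3 calls depended on the processing: of 17 other settings, the Hdac4 3′ locus passed in 10, Kdm6b in 9 and Kmt2a in 7. Loci of 1 symbol, loci not summed and summed Hdac4 rows are among the settings that the Hdac4 3′ locus passed. They left its values unchanged, so its passes there add little. The log2 fold changes kept their sign, from -1.72 to -1.53 for the Hdac4 3′ locus, -1.62 to -0.94 for Kdm6b and -1.19 to -0.65 for Kmt2a. Leaving out any 1 library gave an adjusted p (limma) of 0.065 to 0.16 for the Hdac4 3′ locus and of 0.083 to 0.38 for Kdm6b, and of 0.24 to 0.43 for Kmt2a except without PLZF- library B6 (0.045). With neither trend nor robust moderation, the 3 adjusted p-values (limma) were 0.12, 0.24 and 0.34, from FPKM 0.051, 0.19 and 0.31, and without a filter 0.056, 0.11 and 0.14. Equal-total scaling gave 0.056 for Kdm6b and 0.079 for Kmt2a, and Kmt2a also missed the threshold with a pseudocount of 0.25 (0.060), median-ratio scaling (0.051) and loci of 1 symbol (0.051).

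Among the Polycomb genes, 0 of 7 tested loci passed. At an unadjusted p under 0.05 (limma), 1 was lower, Jarid2, against 12% of all tested genes. The estimate lay below 0 at 4 of 7, against 51.4% of all tested genes. Jarid2, a subunit that helps to recruit the methylating complex, had the highest mean FPKM of the group, a level per length, with 58.8 and 38.1 FPKM in PLZF+ cells, against 115 and 120 FPKM in PLZF- cells. By normalized counts it had 160 and 102 in PLZF+ cells, against 251 and 216 in PLZF- cells, without overlap (log2 fold change -0.86 ± 0.31, adjusted p = 0.14, limma). The core subunit Eed had 52.0 and 51.3 in PLZF+ cells, against 77.6 and 69.5 in PLZF- cells, again without overlap (-0.50, adjusted p = 0.56, limma). Suz12, the other core subunit, did not separate the subsets, with 67.5 and 34.0 normalized counts in PLZF+ cells, against 103 and 34.1 in PLZF- cells.

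Of the catalytic subunits, Ezh1 was at a higher level than Ezh2 in each library. Ezh1 had 27.2 and 33.6 FPKM in PLZF+ cells, against 39.1 and 20.8 FPKM in PLZF- cells, and Ezh2 had 7.03 and 7.48 FPKM in PLZF+ cells, against 3.05 and 9.79 FPKM in PLZF- cells. Ezh1 thus made up 79.5% and 81.8% of their summed FPKM in PLZF+ cells, against 92.8% and 68.0% in PLZF- cells, where the values from PLZF+ cells lie within those from PLZF- cells. By normalized counts Ezh1 was higher in both PLZF+ libraries (165 and 179, against 138 and 146), but its difference was small (0.27 ± 0.29, adjusted p = 0.65, limma), and by FPKM the subsets overlapped.

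The ubiquitin ligases of the second complex were unequal. Rnf2, which encodes RING1B, had 76.8 and 75.3 normalized counts in PLZF+ cells, against 130 and 122 in PLZF- cells, without overlap (-0.72 ± 0.35, adjusted p = 0.28, limma). Ring1 was near the limit of detection in all libraries, with 1 read in PLZF+ library A7, 0 in PLZF+ library B7, 0 in PLZF- library A6 and 1 in PLZF- library B6. A count of 0 allows up to 3 reads, which is 1.67 normalized counts in B7 and 5.06 in A6. Bmi1, a partner of these ligases, varied more within a subset than between them, with 39.6 and 10.0 normalized counts in PLZF+ cells, against 18.6 and 2.44 in PLZF- cells (1.37 ± 1.10, adjusted p = 0.53, limma).

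Of the 7 DNA methylation genes, 0 passed (limma). At an unadjusted p under 0.05 (limma), 1 was lower, Tet3, against 12% of all tested genes. Dnmt1, the enzyme that copies methylation to new DNA strands, was the leading methyltransferase, with 22.5 and 16.4 FPKM in PLZF+ cells, against 28.0 and 28.0 FPKM in PLZF- cells. It made up 75.8% and 74.2% of the summed FPKM of Dnmt1, Dnmt3a and Dnmt3b in PLZF+ cells, against 75.3% and 69.5% in PLZF- cells. By normalized counts it had 203 and 151 in PLZF+ cells, against 256 and 238 in PLZF- cells, without overlap (-0.49 ± 0.28, adjusted p = 0.35, limma). Of the de novo enzymes, Dnmt3a overlapped by normalized counts, with 83.6 and 32.9 in PLZF+ cells, against 43.9 and 78.1 in PLZF- cells. By FPKM it did not, with 5.71 and 3.54 FPKM in PLZF+ cells, against 6.88 and 10.5 FPKM in PLZF- cells. Dnmt3b was low in both, with 9.91 and 15.1 in PLZF+ cells, against 15.2 and 12.2 in PLZF- cells. Uhrf1 lay the other way from its partner Dnmt1, with 52.0 and 77.0 normalized counts in PLZF+ cells, against 35.4 and 34.1 in PLZF- cells (0.85 ± 0.49, adjusted p = 0.36, limma).

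Tet2 was the leading TET enzyme in each library, with 44.1 and 49.2 FPKM in PLZF+ cells, against 40.1 and 35.0 FPKM in PLZF- cells. These are sums of 2 rows, and in B7 the smaller row, of 20.1 normalized counts, gave 8.12 FPKM of the sum. Its share of the summed TET FPKM was 91.7% and 88.6% in PLZF+ cells, against 72.5% and 81.2% in PLZF- cells, and the share of Tet3 was 7.83% and 10.6% in PLZF+ cells, against 24.6% and 18.7% in PLZF- cells. The subsets did not overlap in either share, and 2 libraries a subset allow no permutation p under 0.05, so no test is given. In normalized counts, Tet3 had 73.1 and 86.5 in PLZF+ cells, against 191 and 161 in PLZF- cells, and missed the threshold (-1.13 ± 0.34, adjusted p = 0.067, limma). Its adjusted p (limma) was 0.021 with a term for the letter of the column code and 0.040 at a minimum mean of 50. It was 0.37 from FPKM and 0.23 with neither trend nor robust moderation. Tet2 had 325 and 288 in PLZF+ cells, against 263 and 215 in PLZF- cells (0.36 ± 0.25, adjusted p = 0.46, limma). Tet1 had 8 reads in each PLZF+ library, against 21 and 1 in PLZF- libraries A6 and B6, which is too few to order the subsets.

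**Figure D3:**
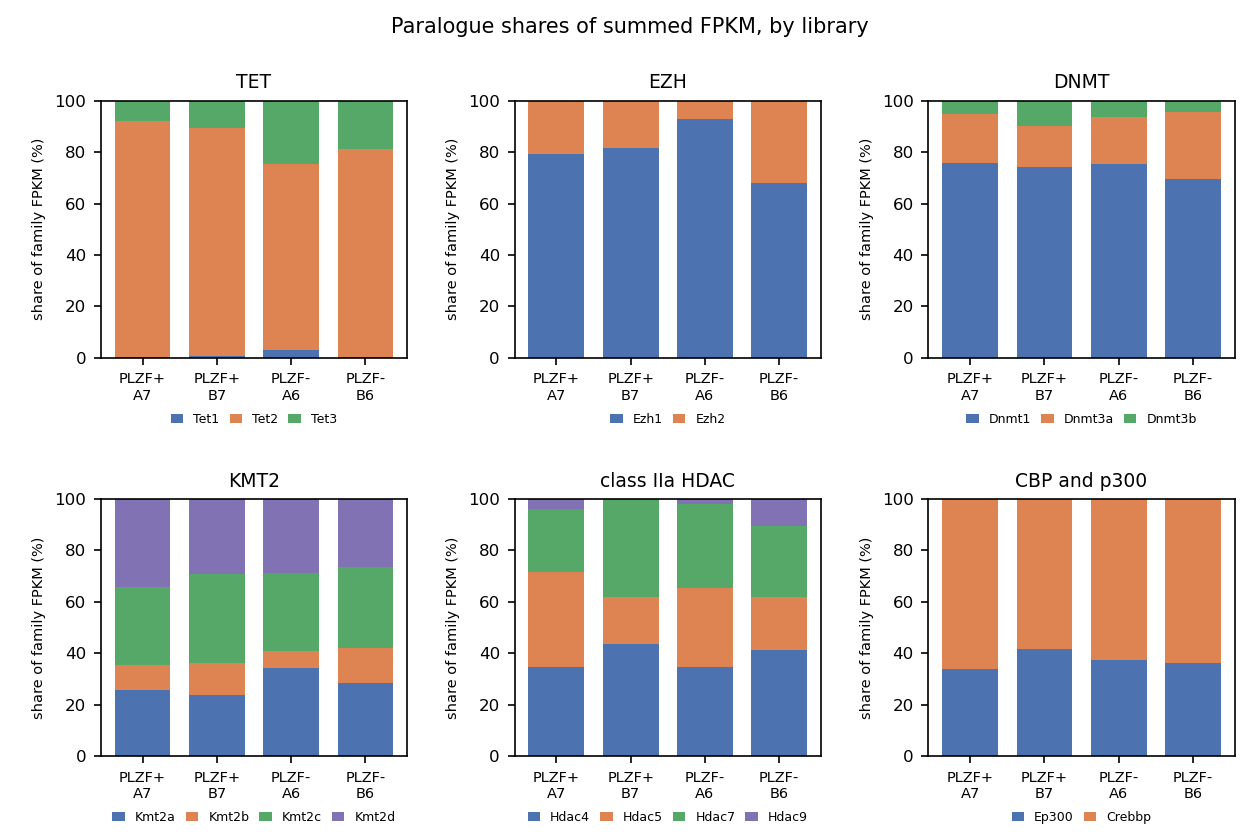
Share of each paralogue in the summed FPKM of its family, in percent, with 1 bar per library (PLZF+ A7 and B7, then PLZF- A6 and B6) and the larger of the Hdac4 loci used for that gene. Tet2 takes 88.6% to 91.7% of TET FPKM in PLZF+ cells, against 72.5% to 81.2% in PLZF- cells, while Crebbp and Ep300 keep a similar order in all 4.

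Of the deacetylases, 1 of 8 tested loci passed, the Hdac4 3′ locus, against 7.46% of all tested genes in either direction. The log2 fold change was below 0 at 7 of 8, with Hdac4 counted at both its loci, against 51.4% of all tested genes. The lysine methyltransferases had the same 7 of 8. The class I enzymes Hdac1 and Hdac3, the nuclear catalytic subunits of corepressor complexes, had the highest FPKM among the loci of the group when averaged over all 4 libraries. In PLZF- cells alone the Hdac4 3′ locus was higher, at a mean of 41.5 FPKM, against 36.6 FPKM for Hdac1. Hdac1 had 20.8 and 38.4 FPKM in PLZF+ cells, against 27.1 and 46.2 FPKM in PLZF- cells. Hdac3 had 27.9 and 25.9 FPKM in PLZF+ cells, against 39.6 and 22.8 FPKM in PLZF- cells. Neither separated the subsets, and in normalized counts their log2 fold changes were -0.12 ± 0.45 and -0.18 ± 0.39. Hdac2 had 8.05 and 21.2 normalized counts in PLZF+ cells, against 21.9 and 42.7 in PLZF- cells, a small gap that did not pass (-1.16 ± 0.74, adjusted p = 0.42, limma). The other class IIa genes lay on the side of Hdac4. Hdac5 had 25.4 and 18.4 normalized counts in PLZF+ cells, against 50.6 and 30.5 in PLZF- cells, and Hdac7 had 29.7 and 26.8 in PLZF+ cells, against 69.2 and 36.6 in PLZF- cells. Neither overlapped between subsets by normalized counts, both did by FPKM, and their log2 fold changes of -0.83 and -0.81 did not pass (adjusted p = 0.47 and 0.44, limma). Hdac9 had 4.95 and 0 normalized counts in PLZF+ cells, against 6.75 and 17.1 in PLZF- cells, and was not tested. Sirt1, a deacetylase that uses NAD, showed no separation (0.032 ± 0.61).

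Of the 7 lysine demethylases 1 passed, Kdm6b, against 7.46% of all tested genes in either direction. Kdm5a, which removes an activating mark from histone H3, had 262 and 327 normalized counts in PLZF+ cells, against 481 and 493 in PLZF- cells. The subsets were well apart, and the log2 fold change of -0.73 ± 0.23 missed the threshold (adjusted p = 0.081, limma). It passed with the column-letter term and at a minimum mean of 50, but not from FPKM or with neither trend nor robust moderation. Kdm2b, which also guides a Polycomb complex to CpG-rich promoters, had 173 and 133 in PLZF+ cells, against 280 and 237 in PLZF- cells (-0.76 ± 0.28, adjusted p = 0.15, limma). Its paralogue Kdm2a had 175 and 158 in PLZF+ cells, against 152 and 138 in PLZF- cells (0.20 ± 0.30), although by FPKM the subsets overlapped. Kdm5b had 40.3 and 61.9 in PLZF+ cells, against 87.7 and 62.2 in PLZF- cells, and Kdm1a, the flavin-dependent demethylase LSD1, had 34.7 and 30.7 in PLZF+ cells, against 18.6 and 34.1 in PLZF- cells. Kdm4a rested on few reads (51 and 29 in PLZF+ cells, against 16 and 3 in PLZF- cells), and its log2 fold change of 1.05 ± 0.94 turned to -0.24 without PLZF- library B6.

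The log2 fold change was below 0 at 7 of the 8 lysine methyltransferases, against 51.4% of all tested genes. Of the 8, 1 passed, Kmt2a, against 7.46% of all tested genes in either direction. Its relatives Kmt2c and Kmt2d encode enzymes that mark enhancers. Kmt2d had 461 and 491 normalized counts in PLZF+ cells, against 703 and 559 in PLZF- cells (-0.40 ± 0.21, adjusted p = 0.32, limma). Kmt2c had 318 and 436 in PLZF+ cells, against 579 and 401 in PLZF- cells, with overlap by normalized counts but not by FPKM. Per length, Kmt2a, Kmt2c and Kmt2d had mean levels of 10.4, 14.1 and 13.4 FPKM in PLZF+ and 20.5, 19.9 and 17.8 FPKM in PLZF- libraries. Kmt2a made up 25.5% and 23.6% of the summed KMT2 FPKM in PLZF+ cells, against 34.4% and 28.6% in PLZF- cells. The methyltransferases of repressive histone H3 marks overlapped between the subsets by normalized counts. Setdb1, Suv39h1, Ehmt1 and Ehmt2 had log2 fold changes of -0.43, -0.015, -0.066 and 0.29. By FPKM, Ehmt2, which encodes G9a, did not overlap, with 14.8 and 32.5 FPKM in PLZF+ cells, against 7.34 and 12.9 FPKM in PLZF- cells. Its partner Ehmt1, which encodes GLP, had 142 and 68.6 normalized counts in PLZF+ cells, against 236 and 45.1 in PLZF- cells, so that both extremes came from PLZF- cells.

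Of 4 acetyltransferases 0 passed (limma). At an unadjusted p under 0.05 (limma), 2 were lower, Crebbp and Kat2b, against 12% of all tested genes. Crebbp and Ep300, a pair of large coactivators of similar structure, kept almost the same balance: Crebbp made up 66.2% and 58.4% of their FPKM in PLZF+ cells, against 62.7% and 63.9% in PLZF- cells. Crebbp had 395 and 360 normalized counts in PLZF+ cells, against 610 and 504 in PLZF- cells (-0.55 ± 0.22, adjusted p = 0.17, limma), and Ep300 had 242 and 262 in PLZF+ cells, against 305 and 294 in PLZF- cells (-0.25 ± 0.24). Kat2b, which encodes PCAF, had 25.4 and 14.0 normalized counts in PLZF+ cells, against 42.2 and 69.5 in PLZF- cells (-1.47 ± 0.59, adjusted p = 0.18, limma). Its paralogue Kat2a, which encodes GCN5, had 10.5 and 26.2 in PLZF+ cells, against 1.69 and 11.0 in PLZF- cells (1.64 ± 1.18, adjusted p = 0.48, limma). Their estimates pointed in opposite directions, with 1 read of Kat2a in PLZF- library A6, and the difference between them was not tested.

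Of the 3 remodellers 0 passed (limma), and they did not point the same way. At an unadjusted p under 0.05 (limma), 1 was lower, Chd4, against 12% of all tested genes. Chd4, the motor of the NuRD deacetylase complex, had 137 and 177 normalized counts in PLZF+ cells, against 321 and 273 in PLZF- cells, and missed the threshold (-0.92 ± 0.28, adjusted p = 0.070, limma). Its adjusted p (limma) was 0.018 with a term for the letter of the column code and 0.038 at a minimum mean of 50. It was 0.18 from FPKM and 0.32 with neither trend nor robust moderation. Arid1a, a DNA-binding subunit of the BAF complex, had 220 and 223 in PLZF+ cells, against 369 and 284 in PLZF- cells (-0.55 ± 0.25, adjusted p = 0.25, limma), and overlapped by FPKM. Smarca4, which encodes BRG1, the motor of the same complex, had 245 and 220 in PLZF+ cells, against 125 and 188 in PLZF- cells (0.60 ± 0.30, adjusted p = 0.29, limma). The loci of Chd4, Smarca4, Ep300, Ehmt2 and Hdac5 also carry the name of another gene, and reads of the others were not told apart. Other loci reach well past their annotated gene, among them those of Kmt2b, Kdm1a, Kdm2b, Kdm5a, Crebbp and Setdb1. Reads from outside the gene may be counted there.

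Spread within a subset limited many of these values. The 2 libraries of a subset were within 1.5-fold of each other in both subsets at 19 of 44 tested loci. They differed over 3-fold in PLZF+ cells at 2 loci, Bmi1 and Setdb1 (3.4-fold), and in PLZF- cells at 7. The widest of those were Tet1 (29.0-fold), Bmi1 (7.6-fold), Kdm4a (7.4-fold), Kat2a (6.5-fold) and Ehmt1 (5.2-fold). The median of that ratio was similar, at 1.32 in PLZF+ and 1.36 in PLZF- libraries. These genes were chosen after their values were seen. Tet1, Bmi1, Kdm4a and Kat2a had at most 21 reads in each PLZF- library, while Ehmt1 had 140 and 37 in A6 and B6.

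The fold changes of all genes moved with transcript length, a comparison chosen after the values were seen. Length was taken as the longest GENCODE M21 transcript of a gene, known for 91.9% of tested genes. Over all tested genes the median was 0.29 under 2000 bases, 0.0036 from 2000 to 4000, -0.13 from 4000 to 6000, -0.23 from 6000 to 8000 and -0.31 from 8000 bases up. The members are long, with a median of 5761 bases against 3527 for all tested genes, and 17 of 44 loci belong to genes of 8000 bases or more. At those 17 the median was -0.55, and PLZF+ libraries lay below both PLZF- libraries at 12, against 41.9% of all 544 tested genes of that length. At the 13 loci from 4000 to 6000 bases the median was -0.30, against -0.13 for all tested genes of that length, and at the 3 from 6000 to 8000 it was -0.92, against -0.23. At the 11 loci from 2000 to 4000 bases the median was -0.015, beside 0.0036 for all tested genes of that length. The part of length in the lower values of the long members was not tested.

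**Figure D4:**
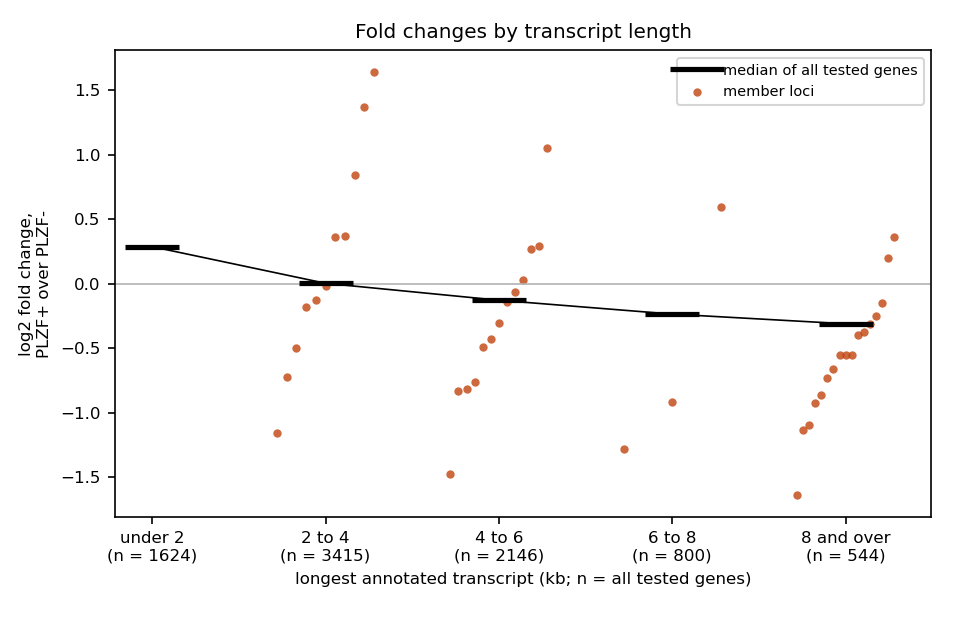
Log2 fold change, PLZF+ over PLZF-, by length of the longest annotated transcript, with black bars for the median of all tested genes in each bin and orange points for the 44 member loci, spread sideways by rank. The black medians fall from 0.29 under 2 kb to -0.31 at 8 kb and over, and most member points in the last bin lie below 0.

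Other genes of the same pathways were taken from 6 further lists. Of 171 listed, 142 were tested, and 4 were lower and 0 higher in PLZF+ cells (limma), against 4.99% and 2.47% of all tested genes. At an unadjusted p under 0.05 (limma), 21 were lower and 4 higher, against 12% and 8.32% of all tested genes. The median of the 142 was -0.16 on the log2 scale, against -0.027 for all tested genes. By list, 0 of 25 further Polycomb genes passed (median -0.16), 1 of 16 DNA methylation genes (-0.13), 0 of 20 deacetylase and corepressor genes (-0.016), 2 of 35 KDM and KMT genes (-0.16), 0 of 20 acetyltransferase and bromodomain genes (-0.35) and 1 of 26 remodeller genes (-0.23). Satb1, a chromatin organiser of developing T cells, had 97.9 and 138 normalized counts in PLZF+ cells, against 656 and 491 in PLZF- cells (-2.28 ± 0.28, adjusted p = 0.00029, limma), and passed in 16 of 17 other settings. Jmjd1c, a member of the KDM3 family, had 372 and 343 in PLZF+ cells, against 801 and 667 in PLZF- cells (-1.03 ± 0.21, adjusted p = 0.0099, limma). Kdm3a, a demethylase of the same family, had 45.2 and 101 in PLZF+ cells, against 297 and 163 in PLZF- cells (-1.69 ± 0.43, adjusted p = 0.034, limma). Gadd45b, a stress-induced gene tied to active DNA demethylation, had 152 and 50.2 in PLZF+ cells, against 342 and 263 in PLZF- cells (-1.77 ± 0.44, adjusted p = 0.029, limma). Kdm3a kept its call in 8 of 17 other settings, Gadd45b in 11 and Jmjd1c in 12.

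Uhrf1, Ezh2 and Dnmt1 are known to rise in dividing cells, so the proliferation markers are given beside them. The 22 markers summed to 2221 and 2366 normalized counts in PLZF+ cells, against 1830 and 1726 in PLZF- cells. Of 20 tested, 2 passed as higher, Cdk1 and Stmn1 (limma), against 2.47% of all tested genes. At an unadjusted p under 0.05 (limma), 7 were higher and 0 lower, against 8.32% and 12% of all tested genes. The median of the list was 0.58 on the log2 scale, against -0.027 for all tested genes. The 3 genes had log2 fold changes of 0.85, 0.37 and -0.49, and 0 of the 3 passed. The part of dividing cells in these values was not tested.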

How the data were processed

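Expression was measured in 2 PLZF+ and 2 PLZF- libraries. Per the submitters' processing notes, reads were handled with HISAT 0.1.6, SAMtools 1.2, Cufflinks 1.2 and Cuffdiff on mm10, and neither annotation nor strandedness is given in the sources used here. Overlapping and antisense genes therefore cannot be told apart. The authors deposited Cuffnorm normalized counts (a signal, estimated reads divided by a factor per library), FPKM, and Cuffdiff q-values, 1 per locus. The columns carry a subset, a code and the tag SFD, which every library shares, and no replicate number.

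Overlapping loci of 1 name were summed (46165 genes), a member's locus had to overlap its GENCODE M21 gene, and Rn45s, listed at 0 in B7, was left out. In PLZF+ libraries 1 read was worth 0.619 (A7) or 0.558 (B7), against 1.69 (A6) or 1.22 (B6) in PLZF- libraries. Limits from reads cover counting error only. Genes with a mean of at least 10 were fitted with limma 3.58.1 (R 4.3.3; trend, robust, two-sided) on log2(normalized count + 1), which understates changes of low genes. The fit was run on simulated data in which all genes share the same spread, unlike the real libraries, so it does not measure the error of the calls made here. Tables used Python 3.11.15 and pandas 2.3.3. Levels of different genes were compared in FPKM, and the FPKM of a member with several rows is their sum. Such a sum is not strictly a level per length, since a row of few counts can weigh heavily. In A7, a row of 11.1 normalized counts gave 5.57 of the 7.94 FPKM of the larger Hdac4 locus.

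Named were members past the threshold, the 2 of highest mean FPKM in each group, those with an absolute log2 fold change of at least 1, paralogues of the families shown, up to 3 called genes of each other list, and Zbtb16. Members and lists were chosen with earlier results of these data known, and other genes named were chosen after their values were seen. Alternatives were other pseudocounts, filters, scalings, moderation and tables, voom, locus choices, each library left out, and a column-letter term.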

Additional observations from a re-analysis of the deposited data

How the results depend on the processing

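The fit over all genes gave 229 higher and 463 lower calls. Without a filter the counts were 109 and 277, on the FPKM table (log2(FPKM + 0.1)) 110 and 246, and with neither trend nor robust moderation 28 and 186. Leaving out 1 library gave 20 to 245 higher and 100 to 266 lower. The count of lower member loci, reported as 3, was 0 without a filter, with FPKM values, and with neither trend nor robust moderation. It was 1 with equal-total scaling and by the authors' Cuffdiff q-values, 6 at a minimum mean of 50 (with Kdm5a, Chd4 and Tet3 added), and 0 to 1 with 1 library left out. Under both pseudocounts, median-ratio scaling, voom, loci of 1 symbol, loci not summed and summed Hdac4 rows it was 2 or 3, and 0 member loci were higher in any setting.

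No paired analysis was possible because the columns carry no replicate number. The replicate block on the letter A or B of the column code, which no label ties to a pairing, gave 426 higher and 694 lower genes, and 6 lower member loci, the reported 3 with Kdm5a, Chd4 and Tet3. Equal-total scaling moved the median log2 fold change of all tested genes to 0.079, against -0.027.

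Signs turned for values that had not passed: with 1 library left out, Hdac1 ranged from -0.62 to 0.37 (0.24 without A7, 0.37 without B6), Hdac3 from -0.52 to 0.15, Kdm4a from -0.24 to 2.34 and Ehmt1 from -1.25 to 1.12 (0.46 without B7). Ehmt1 was also 0.043 with equal-total scaling and 0.15 by voom. The edgeR alternative was not run: between 92.4% and 94.3% of a library's values came within 0.05 of whole reads and the rest did not, so the values were not taken as read counts. Depth limits the members of few reads most: the median over the 46 loci was 91.5 and 122 reads in PLZF+ and 56.5 and 60.5 in PLZF- libraries.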
